A study of Mus musculus with 12 samples.

Results

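The genes described are Hilpda, Plin2, Plin3, Plin4, Pnpla2, Dgat1, Dgat2, Acsl3, Lpin1 and Vldlr. They encode proteins that coat lipid droplets, make or cut triglyceride, or bring lipid into the cell. They were found by gene symbol in the annotation of the array. Of the 10 genes, 9 had a named transcript cluster, the array's unit of measurement, and each of these had exactly 1. They were 9 of 22206 transcript clusters tested, which named 19505 genes. Acsl3, an acyl-CoA synthetase of nascent droplets, was not analysed here. The cells, from FVB-NJ mice, are labelled S100β-v-erbB/p53-/- TSC1, so all groups share the v-erbB oncogene and the loss of p53. The labels do not say what TSC1 stands for. The v-erbB oncogene is a relative of the epidermal growth factor receptor that signals without a ligand, and it is driven by the S100β promoter in a mouse model of glioma. Cells were grown in DMEM F-12 medium with B27 and kept for 16 h in 1 of 4 conditions, with 3 arrays each: normoxia with the solvent DMSO, hypoxia with DMSO, hypoxia with brefeldin A (BFA), and hypoxia with EHT-1864. BFA blocks ARF exchange factors and with them traffic between the endoplasmic reticulum (ER) and the Golgi, and EHT-1864 inhibits Rac GTPases. EHT-1864 was used at 1 µM, while the labels give BFA as 1 µM in one place and as 0.1 µM in another. All groups with a compound analysed here were in hypoxia, so no compound's effect in normoxia is described.

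Lipid droplets store triglyceride and sterol esters in a core that is covered by a phospholipid monolayer and by proteins of the perilipin family. Triglyceride is built in the ER from glycerol phosphate and fatty acyl-CoA, and it is broken down at the droplet surface by a chain of lipases. Droplets gather in many cells that are short of oxygen, among them glioma cells, because fatty acids are then taken up or made faster than they are burned. The COPI coat, which is recruited by ARF1 and its exchange factor GBF1, the main target of BFA, is also known to act at the droplet surface.

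Values were deposited as log2 signals of whole RNA of a culture, so fewer cells that express a gene and less RNA per cell cannot be told apart. In this text "±" after a level is the SD of 3 arrays and "±" after a difference is its standard error in limma, a linear model fitted to all transcript clusters, whose adjusted p is compared with 0.05. A gene was called above background on an array when its signal exceeded the floor, the 95th percentile of the negative control probes of that array. Signals of different genes were not compared, since probes differ in brightness. The arrays of the compound groups differed from the DMSO arrays as a whole. The mean floor was 5.61 for normoxia, 5.61 for the hypoxia DMSO arrays, 6.49 for BFA and 6.01 for EHT-1864, and the transcript clusters below it made up 52.1%, 51.7%, 65.2% and 57.6%. The hybridization controls, RNAs added to the labelled sample, had means of 9.85, 9.76, 10.93 and 10.25 in the same order. These shifts accompany each BFA and EHT-1864 difference given here, and their part in the results was not tested. Of 5 measured markers of oligodendrocyte progenitors, 5 were above the floor in all arrays of both DMSO groups and of the EHT-1864 group, and 4 in all BFA arrays. Their summed linear signal lay between 8808 and 9327 on the normoxia arrays, 8298 and 8597 on the hypoxia DMSO arrays, 824 and 839 under BFA, and 2726 and 3232 under EHT-1864. It therefore moved with both compounds, and its part in the results was not tested. Markers of adipocytes (0 of 6), of microglia and macrophages (0 of 7) and of endothelial cells (0 of 5) were not above the floor on any array. Of the other markers, 2 of 6 for astrocytes, 3 of 6 for neurons and 1 of 5 for fibroblasts and pericytes were above it on at least 1 array. The summed astrocyte signal was between 1148 and 1230 in hypoxia with DMSO, 380 and 477 under BFA, and 847 and 966 under EHT-1864. For neurons the sums lay between 872 and 993, 402 and 423, and 707 and 754 in the same order. The fibroblast and pericyte sums, between 99.4 and 115, were 153 to 193 under BFA and 131 to 138 under EHT-1864. The part of these shifts in the results was not tested either.

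The first comparison asked how the genes differ between hypoxia and normoxia without a compound. Hypoxia raised 4 of the 9 measured genes and lowered 0: Vldlr, Dgat2, Plin2 and Hilpda. Over all transcript clusters, 2.67% passed the same limma threshold, 2.11% as higher and 0.563% as lower. Many of these clusters were below background. Among the 10991 above the floor on at least 3 arrays, fitted by themselves, 1247 passed, 790 as higher and 457 as lower, with a median of 0.0003. That fit held 8 of the genes and called 4 higher and 0 lower. The 3 arrays of each group did not overlap for 7 of the 9 genes and for 30.2% of all clusters. The median difference of the 9 genes was 0.34 on the log2 scale, against -0.03 over all clusters. Plin3, Pnpla2, Lpin1, Dgat1 and Plin4 did not pass.

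The next comparisons set each compound against DMSO in hypoxia and share those 3 DMSO arrays. With BFA, 2 of the 9 genes were higher (Hilpda and Plin4) and 3 were lower (Plin2, Plin3 and Lpin1), where 50.7% of all clusters passed, 26.1% as higher and 24.6% as lower. The groups did not overlap for 6 of the 9, against 55.9% of all clusters. Plin4 was below the floor on every array, which leaves 1 gene with a measured rise. The median difference of the 9 genes was -0.08 against 0.11 over all clusters. Among the 10991 clusters above the floor on at least 3 arrays, fitted by themselves, the median was -0.28, on the other side of the genes' median, and 7423 passed, 2155 as higher and 5268 as lower. The near-even split over all clusters thus includes those below background. With EHT-1864, 1 gene was higher (Lpin1) and 5 were lower (Vldlr, Hilpda, Plin3, Dgat1 and Pnpla2), where 30.5% of all clusters passed, 13% as higher and 17.4% as lower. The groups did not overlap for 7 of the 9, against 48.5% of all clusters. The median was -0.38 against 0.06 over all clusters and -0.14 over those 10991, of which 2042 passed as higher and 4005 as lower. BFA set against EHT-1864 directly gave 3 genes higher with BFA (Hilpda, Vldlr and Dgat1) and 2 lower (Lpin1 and Plin2), where 36.5% of all clusters passed, 16.9% as higher and 19.6% as lower. The groups did not overlap for 5 of the 9, against 42.2% of all clusters.

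**Figure D1:**
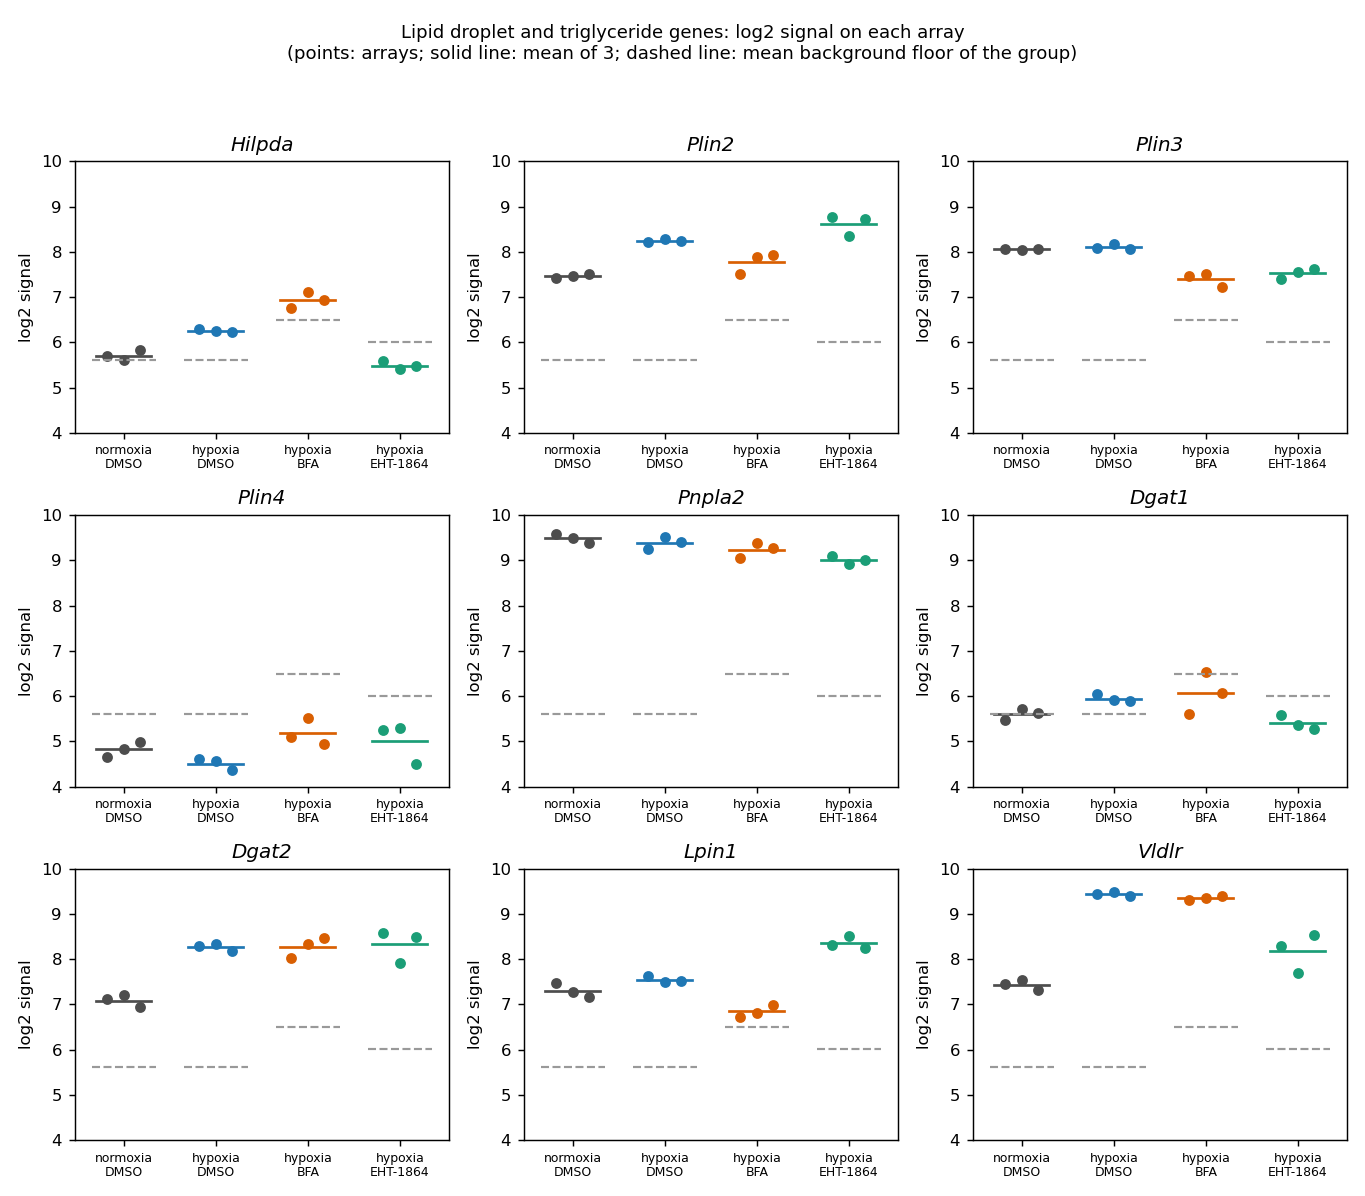
Log2 signal (vertical axis) of the 9 measured lipid droplet and triglyceride genes on each of 12 arrays, by group. Points are arrays, solid lines are means of 3 arrays and dashed lines are the mean floor of the group; Plin4 lies below the floor on all arrays, and Hilpda lies below it only in the EHT-1864 group.

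Among the droplet coat and surface proteins, Hilpda rose with BFA and fell with EHT-1864 against the same DMSO arrays. It encodes a small droplet protein that inhibits the lipase ATGL and is known as a target of hypoxia-inducible factors (HIF). The log2 signal of Hilpda was 5.70, 5.61 and 5.82 on the normoxia arrays, 6.30, 6.25 and 6.22 on the hypoxia DMSO arrays, 6.75, 7.12 and 6.93 under BFA, and 5.58, 5.41 and 5.47 under EHT-1864. No array of one group lay within the range of another, with EHT-1864 lowest, then normoxia, hypoxia with DMSO, and BFA. All 9 arrays of the normoxia, hypoxia DMSO and BFA groups were above the floor and all 3 EHT-1864 arrays were below it. EHT-1864 values were also below 5.61, the mean floor of the DMSO groups. The rise with hypoxia was 0.55 ± 0.12 (limma adjusted p = 0.0319). This call was lost when any 1 of the 6 arrays compared was left out (limma adjusted p between 0.0685 and 0.148), and after a further quantile normalization (limma adjusted p = 0.0533). BFA gave a further 0.68 ± 0.12 (limma adjusted p = 0.000569). The group mean lay 0.64 above the mean floor in hypoxia with DMSO and 0.44 above it with BFA, so signal and floor were both higher with BFA. EHT-1864 lowered Hilpda by at least 1.19-fold (limma adjusted p = 0.000508), which is a bound set by the floor; the measured means differed by -0.77 on the log2 scale. BFA was at least 1.91-fold above EHT-1864 (limma adjusted p = 1.31e-06). EHT-1864 did not differ from normoxia by the test (-0.22 ± 0.12, limma adjusted p = 0.230).

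The promoter of Hilpda is shown because it holds the letters of the HIF binding core, ACGTG or GCGTG, which were searched on both strands in the 250 bases before each RefSeq start (build GRCm38.p6). The table held 10 such windows for 8 of the 10 genes. In 3 of these windows, 1 each of Hilpda, Plin2 and Acsl3, the core was found, and it was found in 38.6% of 32851 windows of all genes. Of the windows before the 2 Hilpda starts, 1 held 0 matches and the other held 3. The matches are printed in 5′ to 3′ direction of the gene with the core in capitals and 10 bases on each side, and start 111, 43 and 8 bases before that start:
Hilpda core 1, chr6:29272505-29272529, plus strand: accgcgagccGCGTGctttccgtga
Hilpda core 2, chr6:29272573-29272597, plus strand: tggccagcggACGTGccccagggcg
Hilpda core 3, chr6:29272608-29272632, plus strand: ggttcggtacGCGTGcgcagtctcc
A match is a string of letters and not a measured binding site.

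Plin2 encodes perilipin 2, the perilipin that coats droplets in most cell types and is degraded when it is not bound to them. The arrays gave it log2 signals of 7.42, 7.46 and 7.51 on the normoxia arrays, 8.22, 8.29 and 8.23 on the hypoxia DMSO arrays, 7.52, 7.88 and 7.93 under BFA, and 8.77, 8.35 and 8.72 under EHT-1864. The 4 groups did not overlap, and their order was normoxia, BFA, hypoxia with DMSO, EHT-1864, which is not the order of Hilpda. Hypoxia raised it by 0.79 ± 0.14 (limma adjusted p = 0.0100); without the second hypoxia DMSO array, the adjusted p was 0.0512. BFA lowered it by 0.47 (SE 0.14, limma adjusted p = 0.0154). That call was lost after a further quantile normalization (-0.16, limma adjusted p = 0.342) and without the first BFA array (-0.34, limma adjusted p = 0.0561). With EHT-1864 the difference was 0.37 ± 0.14, which did not pass (limma adjusted p = 0.0691). It passed under 7 of 9 other settings of the analysis. Of 12 fits that each left out 1 array, it passed in only 2 (limma adjusted p up to 0.200). BFA was lower than EHT-1864 by 0.84 on the log2 scale (SE 0.14, limma adjusted p = 0.000456). The Plin2 promoter held 1 HIF core, written here on the gene's strand, on which it reads as its reverse complement, 86 bases before the start:
Plin2 core, chr4:86670131-86670155, minus strand: ttggggttccCACGCcctcatcccc
All 12 Plin2 arrays were above the floor.

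Plin3 encodes perilipin 3, a cytosolic perilipin that moves to new droplets. It had log2 signals of 8.07, 8.04 and 8.07 in normoxia and 8.08, 8.17 and 8.06 in hypoxia with DMSO, and these groups overlapped. It was 7.47, 7.51 and 7.23 with BFA and 7.41, 7.55 and 7.61 with EHT-1864, and all 6 compound arrays lay below all 6 DMSO arrays. The hypoxia difference was 0.04 ± 0.12, with a 95% interval from -0.21 to 0.29. BFA lowered Plin3 by 0.70 (SE 0.12, limma adjusted p = 0.000278) and EHT-1864 lowered it by 0.58 (SE 0.12, limma adjusted p = 0.00235). After a further quantile normalization both calls were kept, at -0.38 and -0.39. The compounds differed from each other by -0.12 (95% interval -0.37 to 0.13), which did not pass. Plin4, a perilipin best known from fat tissue, was below the floor on all 12 arrays, with group means between 4.51 and 5.18. Its call with BFA (limma adjusted p = 0.0171) sets 2 values below background against each other, and no fold is given.

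Pnpla2 encodes ATGL, the lipase that makes the first cut in triglyceride and that HILPDA and G0S2 inhibit. Log2 signals of Pnpla2 were 9.58, 9.49 and 9.38 on the normoxia arrays, 9.25, 9.51 and 9.41 on the hypoxia DMSO arrays, 9.05, 9.37 and 9.28 under BFA, and 9.10, 8.92 and 9.00 under EHT-1864. Normoxia, hypoxia with DMSO and BFA each overlapped the next, and the EHT-1864 arrays lay below those of both DMSO groups. Hypoxia gave -0.10 ± 0.13 (95% interval -0.37 to 0.18) and BFA gave -0.15 ± 0.13 (95% interval -0.43 to 0.12). EHT-1864 lowered it by 0.38 against hypoxia with DMSO (SE 0.13, limma adjusted p = 0.0360). This was lost after a further quantile normalization (-0.27, limma adjusted p = 0.0886) and after subtraction of each array's median (limma adjusted p = 0.0716). It was also lost without the second normoxia array, the second or the third hypoxia DMSO array, or the second or the third EHT-1864 array (limma adjusted p between 0.0524 and 0.125).

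The enzymes of triglyceride synthesis did not move together. Dgat2 and Dgat1 encode the 2 unrelated enzymes that join the last fatty acid to diacylglycerol. Dgat2 had log2 signals of 7.12, 7.20 and 6.94 on the normoxia arrays, 8.28, 8.34 and 8.19 on the hypoxia DMSO arrays, 8.03, 8.34 and 8.47 under BFA, and 8.59, 7.92 and 8.49 under EHT-1864. All 9 hypoxic arrays were above all 3 normoxic arrays, and the 3 hypoxic groups overlapped. Hypoxia raised it by 1.19 ± 0.18, or 2.27-fold (limma adjusted p = 0.00217). Neither compound's difference from DMSO in hypoxia passed: it was 0.01 with BFA (95% interval -0.37 to 0.39) and 0.06 with EHT-1864 (95% interval -0.32 to 0.44). Against normoxia it was higher by 1.19 with BFA and 1.25 with EHT-1864.

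Dgat1 was close to background. It was above the floor on 1 normoxia array, 3 hypoxia DMSO arrays, 1 BFA array and 0 EHT-1864 arrays. The log2 values were 5.47, 5.72 and 5.63 on the normoxia arrays, 6.04, 5.91 and 5.88 on the hypoxia DMSO arrays, 5.60, 6.52 and 6.06 under BFA, and 5.58, 5.37 and 5.26 under EHT-1864. The hypoxia difference of 0.34 ± 0.19 did not pass (limma adjusted p = 0.435), although the groups did not overlap. It was lower with EHT-1864 than with DMSO (limma adjusted p = 0.0487), and the EHT-1864 arrays were all below a floor that was higher than the DMSO mean, so no fold is given. That call held only when the first or second BFA array or the first EHT-1864 array was the one left out, and was lost without any of the other 9 (limma adjusted p up to 0.141) and after quantile normalization (0.138) or median subtraction (0.0755). Dgat1 was called higher with BFA than with EHT-1864 (limma adjusted p = 0.0161). Only 1 of the 3 BFA arrays was above the floor and the BFA mean was below it, so no fold is given. Without the second BFA array the limma adjusted p was 0.0557, and without the third EHT-1864 array it was 0.0603. With only the 6 arrays compared it was 0.0651.

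Lpin1 encodes lipin 1, the phosphatidate phosphatase that makes diacylglycerol and also acts in the nucleus with PGC-1α, the product of Ppargc1a. Its log2 signal was 7.47, 7.28 and 7.17 on the normoxia arrays, 7.64, 7.50 and 7.52 on the hypoxia DMSO arrays, 6.73, 6.82 and 7.00 under BFA, and 8.32, 8.52 and 8.24 under EHT-1864. The 4 groups did not overlap, and their order was BFA, normoxia, hypoxia with DMSO, EHT-1864. The step from normoxia to hypoxia, 0.25 ± 0.13, did not pass (limma adjusted p = 0.388). BFA lowered Lpin1 by 0.70 (SE 0.13, limma adjusted p = 0.000616), with a difference of -0.36 after a further quantile normalization. EHT-1864 raised it by 0.81 ± 0.13 (limma adjusted p = 0.000500). Between the compounds it was 2.85-fold lower with BFA (limma adjusted p = 1.35e-06). The 2 compound groups thus took the outer places in reverse order to Hilpda, with the highest Lpin1 signal where Hilpda was below background.

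Vldlr encodes the receptor for very low density lipoprotein, which brings triglyceride-rich particles to the cell and is known to rise in hypoxia. It had the largest hypoxia difference of the 9 genes. Its log2 signal was 7.46, 7.53 and 7.31 on the normoxia arrays, 9.44, 9.48 and 9.41 on the hypoxia DMSO arrays, 9.31, 9.36 and 9.41 under BFA, and 8.29, 7.69 and 8.53 under EHT-1864. The EHT-1864 arrays lay between the normoxia arrays and the other hypoxic arrays, with 1 array near the normoxia values. The rise with hypoxia was 2.01 ± 0.17, or 4.02-fold (limma adjusted p = 1.67e-05). BFA changed it by -0.08 (95% interval -0.46 to 0.29), and EHT-1864 lowered it by 1.27 (SE 0.17, 2.41-fold, limma adjusted p = 0.000181). With EHT-1864 it was still 0.74 ± 0.17 above normoxia (limma adjusted p = 0.00816). BFA was 1.18 ± 0.17 above EHT-1864 (limma adjusted p = 0.000139). Neither of the 2 Vldlr promoter windows held the HIF core letters. One of them held the letters TGATGNAA of a C/EBP-ATF element, which were found in 3.45% of all windows and in 1 of the 10 windows of these genes. The match lies on the opposite strand, 200 bases before the start, and is printed on the gene's strand with the element in capitals:
Vldlr element, chr19:27216810-27216837, plus strand: gcagcaatagTTGCATCAgcgctcctag
The E-box CACGTG, each copy of which also holds ACGTG, was in 6.02% of all windows and in 0 of these 10.

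**Figure D2:**
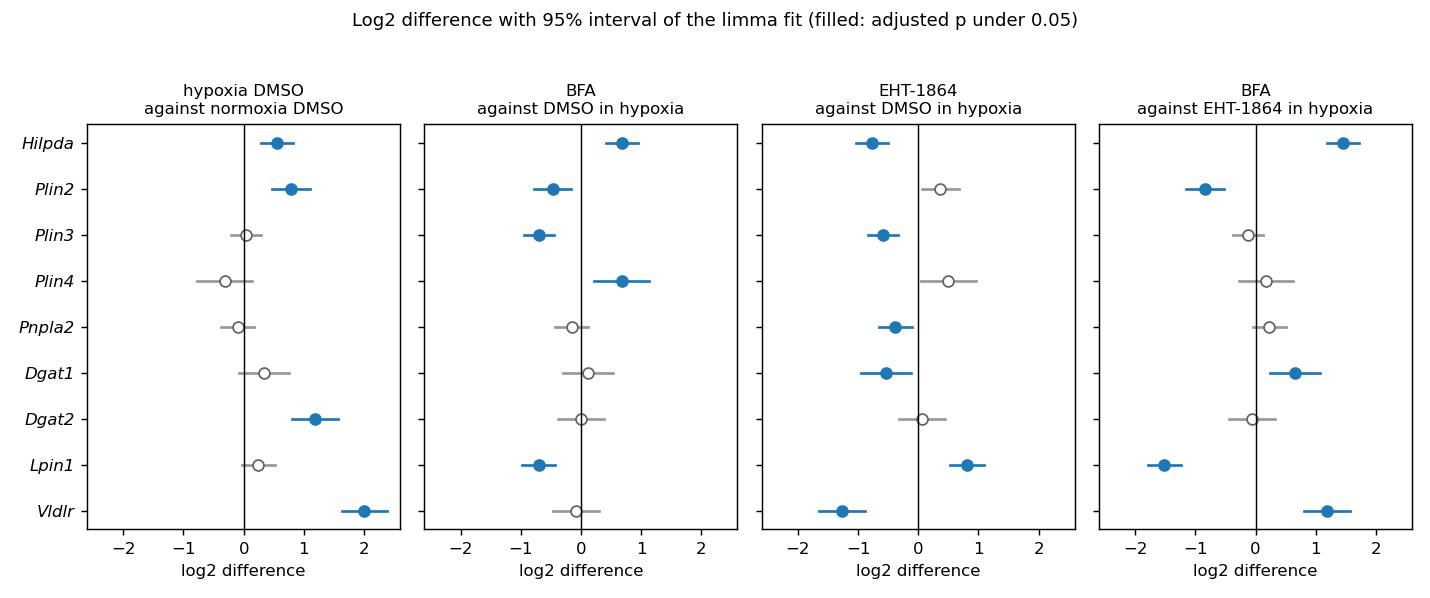
Log2 difference (horizontal axis) with its 95% interval in limma for the 9 measured genes in 4 comparisons; filled points passed the adjusted p of 0.05. Plin4 was below the floor throughout; Hilpda and Lpin1 point in opposite directions with the 2 compounds, while Dgat2 and Vldlr lie near 0 with BFA.

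Set against normoxia, the hypoxic cultures with a compound kept some of the hypoxia differences and not others. With BFA, 3 of the 9 genes were higher than in normoxia (Hilpda by 1.23, Dgat2 by 1.19 and Vldlr by 1.92) and 2 were lower (Plin3 at -0.66 and Lpin1 at -0.46), where 47% of all clusters passed, 23% as higher and 24% as lower, and the groups did not overlap for 7 of the 9 and for 53.6% of all clusters. The Lpin1 call was lost after a further quantile normalization (-0.16, limma adjusted p = 0.326) and without the first normoxia array (limma adjusted p = 0.0552). Plin2, at 0.32 ± 0.14, did not pass (limma adjusted p = 0.0869). It passed under 5 of 9 other settings, but in only 1 of 12 fits that each left out 1 array (limma adjusted p up to 0.240). With EHT-1864, 4 genes were higher (Plin2 by 1.15, Dgat2 by 1.25, Lpin1 by 1.06 and Vldlr by 0.74) and 2 were lower (Plin3 at -0.53 and Pnpla2 at -0.48), where 22.4% of all clusters passed, 8.1% as higher and 14.3% as lower, and the groups did not overlap for 7 of the 9 and for 42% of all clusters. The Pnpla2 call was lost without the first normoxia array (limma adjusted p = 0.0680) or the second EHT-1864 array (0.0527). Of the 4 genes that hypoxia raised, Dgat2 was thus above normoxia by a similar amount with either compound, Hilpda only with BFA by this threshold, and Plin2 only with EHT-1864. The direct tests of BFA against EHT-1864, given above, passed for Hilpda and Plin2.

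Other genes of lipid storage and use were taken from 10 lists, from the droplet coat to fatty acid oxidation and the ARF1 and COPI machinery. Beyond the 10 genes above they held 85, of which 79 were measured and 60 were above the floor on at least 1 array. Hypoxia raised 6 of the 79 and lowered 0, where 2.11% of all clusters were called higher and 0.563% lower. The median was 0.05, against -0.03 over all clusters. The 6 were Fabp5, a fatty acid binding protein (1.22 ± 0.12, limma adjusted p = 5.28e-05), the fatty acid transporter Slc27a1 (0.71 ± 0.12), the caveolar protein Cav1 (at least 1.55-fold, since normoxia was below the floor), the stress transcription factors Ddit3 (1.74 ± 0.16) and Atf4 (0.72 ± 0.12), and the COPI subunit Cope (0.52). The calls of Cav1 and Cope were lost when any 1 of the 6 arrays compared was left out, and that of Slc27a1 without the third normoxia array. With the settings unchanged, none of the other listed genes of lipolysis (0 of 5), triglyceride synthesis (0 of 13), acyl-CoA synthesis (0 of 3), fatty acid oxidation (0 of 12) or sterol esters (0 of 2) passed in hypoxia. A fit of only the clusters above the floor on at least 3 arrays called 10 of 59 list genes higher and 0 lower. Of all 10991 clusters in that fit, 790 were called higher and 457 lower. Array weights gave 11 higher and 1 lower of the 79, where 1265 and 993 of 22206 clusters were called. Leaving out 1 of the 6 arrays compared gave 3 to 5 higher and 0 lower. Over the 22206 clusters those fits called 228 to 291 higher and 23 to 28 lower.

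With BFA, 24 of the 79 were higher and 27 lower than with DMSO in hypoxia, where 26.1% of all clusters were called higher and 24.6% lower. The median was 0.02 against 0.11 over all clusters. A fit of only the clusters above the floor on at least 3 arrays called 19 of 59 list genes higher and 26 lower. Of all 10991 clusters in that fit, 2155 were called higher and 5268 lower. Of the called genes, 17 of the higher ones and 26 of the lower ones were above the floor on at least 1 array of the groups compared. In lipolysis, 3 of 5 rose and 2 were called lower, 1 of them above the floor. G0s2, which like HILPDA inhibits ATGL, rose by 0.80 ± 0.14 (limma adjusted p = 0.000475), and Abhd5, which activates ATGL, rose by 0.58 ± 0.16. Lipe, the hormone-sensitive lipase, rose by 0.55 ± 0.18, with 2 of 3 BFA arrays above the floor. Mgll, the monoglyceride lipase that takes the last step, fell at least 2.98-fold, from 8.07 to below the floor on all 3 arrays (limma adjusted p = 4.10e-08). Pnpla3, the remaining gene, was below the floor in both groups. In triglyceride synthesis, 3 of 13 were called higher and 4 fell, and of the higher ones only 1 was above the floor; the glycerol phosphate acyltransferase Gpat3 rose by 0.99 ± 0.15, while its mitochondrial relative Gpam fell by 0.83 (SE 0.14) and the acyltransferase Agpat5 fell by 1.42 (SE 0.12). Gpat2 and Lpin3, also called, were below the floor in both groups. All 3 measured acyl-CoA synthetases were called lower, among them Acsl5 by 1.71 (SE 0.15), with 1 of 3 BFA arrays above the floor. Acsl6 was below the floor on all 3 BFA arrays. Its mean of 5.95 in hypoxia with DMSO was below the BFA floor of 6.49, so no fold is given. The calls of Acsl4 and Acsl6 were each lost under at least 1 other setting.

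EHT-1864 raised 6 of the 79 and lowered 25, where 13% of all clusters were called higher and 17.4% lower. The median was -0.15 against 0.06 over all clusters, and a further quantile normalization gave 8 higher and 19 lower with a median of -0.08. A fit of only the clusters above the floor on at least 3 arrays called 7 of 59 list genes higher and 28 lower. Of all 10991 clusters in that fit, 2042 were called higher and 4005 lower. In lipolysis 0 rose and 1 fell of 5: Mgll, by 1.61 (SE 0.21, limma adjusted p = 0.000137). Lipe was below the floor on all 3 arrays but did not pass (limma adjusted p = 0.0510), and G0s2 gave -0.35 ± 0.14 (limma adjusted p = 0.0790). In triglyceride synthesis 1 rose and 6 fell of 13: Gpat3 rose by 0.82 ± 0.15, and Gpam fell by 0.92 (SE 0.14), Agpat2 by 0.80 and Agpat5 by 0.68. Fitm2, an ER protein needed for droplet budding, fell at least 1.64-fold (limma adjusted p = 0.00108) and did not pass with BFA (-0.10 ± 0.20). Ppargc1a, the coactivator PGC-1α of mitochondrial fat oxidation, was below the floor in both DMSO groups and rose at least 9.02-fold with EHT-1864, to 8.79 (limma adjusted p = 7.24e-07). It stayed below the floor with BFA. In the fatty acid oxidation list, 0 of 12 were higher and 4 lower with EHT-1864. These were Cpt2, the inner mitochondrial carnitine palmitoyltransferase (-1.33 ± 0.15), Hadhb (-0.79), Cpt1c (-0.67) and Acadm (-0.52). The last 2 were lost after a further quantile normalization. Cpt2 was above the floor on 2 of 3 EHT-1864 arrays, with a mean of 6.02 against a mean floor of 6.01.

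In the list of lipid uptake and binding, which holds Vldlr, BFA raised 1 and lowered 5 of the other 10, and EHT-1864 raised 2 and lowered 5. Over all clusters, 26.1% were called higher and 24.6% lower with BFA, and 13% and 17.4% with EHT-1864. Of these 10 genes, 7 were above the floor on at least 1 array of the groups compared. Among the 10991 clusters above the floor on at least 3 arrays, fitted by themselves, 2155 were higher and 5268 lower with BFA. With EHT-1864 these counts were 2042 and 4005. Lpl, the lipoprotein lipase, rose with both, by 1.10 ± 0.21 with BFA and by 0.83 ± 0.21 with EHT-1864. Lrp8, the receptor closest in structure to VLDLR, fell by 1.30 (SE 0.22) with BFA and by 2.02 (SE 0.22) with EHT-1864. With BFA Fabp5 fell by 2.32 (SE 0.12) and Fabp7 fell by 2.80 (SE 0.11), and with EHT-1864 they differed by -0.54 and -0.34. The direct tests of BFA against EHT-1864 gave -1.78 and -2.46 (limma adjusted p = 1.92e-07 and 1.84e-08). Slc27a1 fell by 0.62 with BFA and by 1.22 with EHT-1864. Fabp3, called higher with EHT-1864, was below the floor. BFA set against EHT-1864 over all 79 genes gave 25 higher and 15 lower with BFA, where 16.9% and 19.6% of all clusters were, among them G0s2 (1.15 ± 0.14) and Lipe (at least 1.75-fold) higher. In the fit of the 10991 clusters, 25 of 59 list genes were higher and 17 lower, where 2523 and 4374 of the clusters were.

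For the remaining lists, the shares over all clusters were again 26.1% called higher and 24.6% lower with BFA, and 13% and 17.4% with EHT-1864. Of the 10991 clusters above the floor on at least 3 arrays, 2155 were higher and 5268 lower with BFA, and 2042 and 4005 with EHT-1864. Droplet assembly had 4 of 14 called higher and 3 lower with BFA, and 0 higher and 3 lower with EHT-1864. Of the 4, Cidea and Fitm1 were below the floor in both groups. The largest BFA difference of that list was that of Cav1, which was below the floor on all arrays of both compounds. Its measured means differed by -1.82 with BFA (limma adjusted p = 1.40e-05), where the higher floor allows no fold, and it was at least 1.18-fold lower with EHT-1864 (limma adjusted p = 0.00976, and 0.0504 after a further quantile normalization). Rab18, a GTPase of the droplet surface, rose by 0.53 with BFA, and the droplet enzyme Hsd17b11 fell by 1.17 with BFA and by 0.85 with EHT-1864. Both measured sterol ester genes fell with both compounds. Lipa, the lysosomal acid lipase, fell by 1.23 with BFA, with 1 of 3 BFA arrays above the floor. Nceh1, a cholesterol ester hydrolase, fell by 1.42 with EHT-1864. Lipa with EHT-1864 (-0.40) was lost after a further quantile normalization (-0.17, limma adjusted p = 0.322) and without the second or the third array of either group (up to 0.0943). Fatty acid oxidation had 2 of 12 called higher, 1 of them above the floor, and 6 lower with BFA, and 1 higher and 3 lower after a further quantile normalization. The regulators had 5 of 10 called higher, 3 of them above the floor, and 2 lower with BFA. With EHT-1864, 3 were higher and 0 lower. Ddit3 rose with both compounds, by 2.49 ± 0.16 and 1.66 ± 0.16. The 2 lower with BFA were the HIF subunit genes Hif1a (-1.03, limma adjusted p = 3.98e-05) and Epas1 (-0.89, limma adjusted p = 0.00976). Epas1 was above the floor on 1 hypoxia DMSO array and 0 BFA arrays. Hif1a had its lowest group mean with BFA, where Hilpda was highest. A link between them was not tested. Of 8 ARF1 and COPI genes, BFA raised 6 and lowered 0, where 26.1% of all clusters were called higher, and EHT-1864 raised 0 and lowered 2, where 17.4% were called lower. Gbf1 rose by 1.36 ± 0.13 with BFA (limma adjusted p = 3.15e-06) and fell by 0.55 (SE 0.13, limma adjusted p = 0.00736) with EHT-1864; Arf4 rose by 1.02 ± 0.11 with BFA, and Arf1 gave 0.19 ± 0.11. The 2 other droplet coat genes were below the floor on all arrays.

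**Figure D3:**
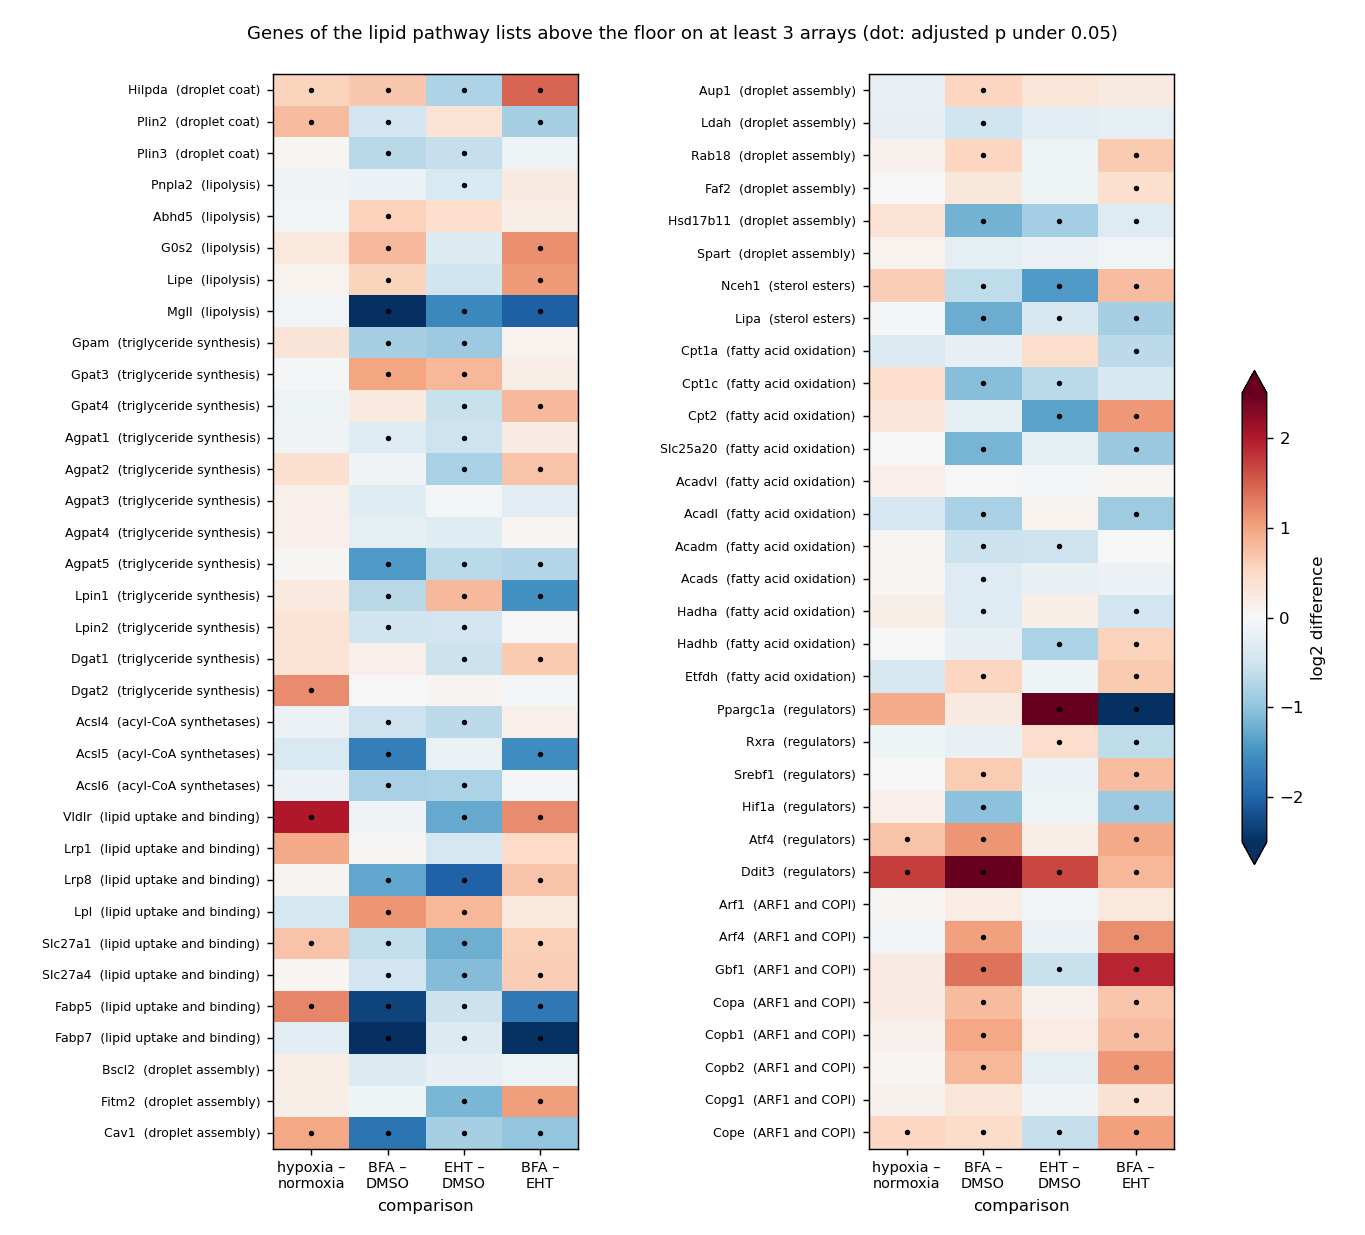
Log2 difference (colour) of 67 genes of the lipid lists that were above the floor on at least 3 arrays, by comparison (columns), with a dot where limma's adjusted p was under 0.05; the 10 lists are named in brackets and include the 8 studied genes that reach the floor. Colours end at 2.5 on the log2 scale and 4 cells lie beyond, those of Mgll and Fabp7 with BFA and both Ppargc1a cells of EHT-1864; the hypoxia column holds few dots and the BFA column many.

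Genes whose course over the 12 arrays was most like that of Hilpda, Plin2 or Vldlr were sought among 10023 genes with 1 symbol that were above the floor on at least 3 arrays. Likeness was the root mean square difference of log2 values after each gene's mean was subtracted, and it describes shape only. Nearest to Hilpda were Faim2, an inhibitor of cell death through Fas (0.11), Arfgap3, which switches off ARF GTPases (0.13), and Prrc1 (0.13). The group means of Arfgap3 were 8.64 on the normoxia arrays, 9.10 on the hypoxia DMSO arrays, 9.75 under BFA, and 8.41 under EHT-1864. Nearest to Plin2 were the linker histone H1f2 (0.17), the membrane protein Slitrk6 (0.17) and Spats2l (0.17). Nearest to Vldlr were P4ha1, a subunit of the collagen prolyl hydroxylase (0.18), the histone demethylase Kdm3a (0.26) and Ddit4, an inhibitor of mTORC1 (0.27). Those of P4ha1 were 8.27, 10.48, 10.28 and 9.35 in the same order of groups, and those of Kdm3a were 6.61, 8.43, 7.91 and 7.19. No gene was nearest to more than 1 of the 3.

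**Figure D4:**
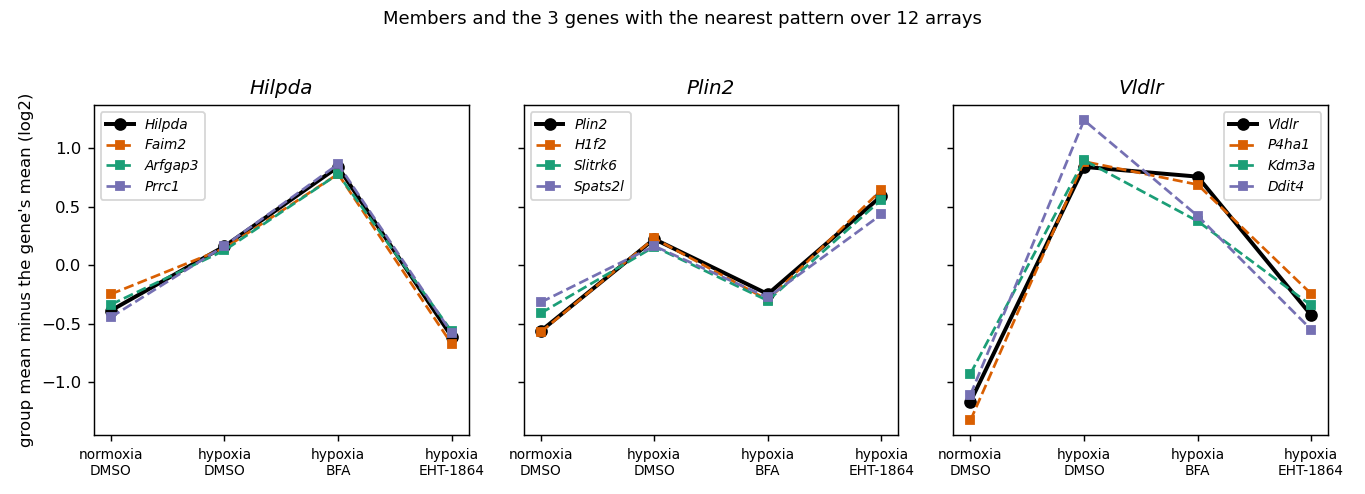
Group mean minus the gene's own mean (vertical axis, log2) for Hilpda, Plin2 and Vldlr (black) and the 3 genes nearest to each over 12 arrays (colours), by group (horizontal axis). The 3 courses differ in the compound groups: Hilpda peaks with BFA, Plin2 with EHT-1864, and Vldlr in hypoxia with DMSO and with BFA.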

How the data were processed

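RNA of 12 cultures was measured on Clarion S mouse arrays. The deposited log2 values were made by the authors with RMA in Affymetrix Expression Console, per the submitters' processing notes; versions and genome build are not given in the sources used here. RMA evens out the distributions of arrays, so a change in total RNA is not visible. Of 28846 rows, 6640 were controls and were left out, and 22206 transcript clusters were tested without a filter. Per the labels, Trizol and the WT Plus kit were used on 3 independent cultures per condition; p-values measure the spread between these samples, which may be partly technical. The number of arrays limits the precision.

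The platform annotation gave the gene names, and Entrez numbers were used to update symbols (19572 clusters with 1 symbol, 2634 with none, 0 with several); the brightest cluster stood for a gene. All 12 arrays were fitted together with limma 3.58.1 in R 4.3.3 (lmFit, eBayes; residual df 8, prior df 4.87), with Benjamini-Hochberg adjustment over all clusters and a threshold of 0.05. Where no array of a group exceeded the floor, the difference is a bound, taken against the higher of floor and value on each array. With both groups below it, or with the brighter group mostly below it, no fold is given. Figures and sequence searches used Python 3.11.15.

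The genes studied, the lists and the rule for names were chosen with earlier results of these data known. Besides the 10 genes, those named were list genes past the threshold, up to the 4 largest in size for each list and comparison, and the 3 genes nearest in course to Hilpda, Plin2 and Vldlr; other list genes given a value (Lipe with BFA, for example) were chosen after their values were seen. Alternatives were quantile normalization, median subtraction, 3 filters on dim clusters (one, above the floor on at least 3 arrays, added after seeing the data), a trended and robust variance, array weights, a fit of only the 6 arrays compared, a replicate block, a 2-fold minimum and leaving out each array. Array numbers were not taken to pair cultures: deviations of same-numbered arrays correlated between -0.18 and 0.17, over 0.1 in 1 of 18 pairs. No 2 arrays held identical values. The script was checked on simulated data for the hypoxia comparison. There 66 of 100 planted log2 changes of 1 and 100 of 100 of 2 passed, with 7 false calls. A 2-fold change can thus fail to pass.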

Additional observations from a re-analysis of the deposited data

How the results depend on the processing

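Of 1122 differences of the 9 genes recomputed under an alternative, 1057 kept their direction and their side of the threshold, 41 fell below it, 24 rose above it and 0 called ones turned sign. Requiring at least a 2-fold change left 2 of 4 genes in hypoxia, 0 of 5 with BFA, 1 of 6 with EHT-1864, 3 of 5 between the compounds, 3 of 5 for BFA against normoxia and 3 of 6 for EHT-1864 against normoxia. Quantile normalization left 3 of 5 with BFA, where 9497 of 22206 clusters passed. Leaving out 1 array in turn gave 2 to 4 genes for hypoxia (2 without the second hypoxia DMSO array), 4 to 5 for BFA, 4 to 7 for EHT-1864, 4 to 5 between the compounds, and 4 to 7 and 5 to 6 for BFA and EHT-1864 against normoxia. Over all 22206 clusters, those fits called 254 to 898, 9538 to 11394, 4986 to 7806, 6900 to 8280, 8503 to 10601 and 3451 to 5753 in that order. With array numbers as a replicate block the counts of genes in that order were 3, 5, 4, 5, 5 and 6. The counts of clusters were 442, 10938, 6349, 7816, 10117 and 4570. The check of the numbers gave no pairing. For named list genes, 2996 of 3072 values kept the call, 76 fell below the threshold and 0 turned sign. Over all clusters, the 593 calls for hypoxia became 1264 with a log2 signal of at least 6, 1247 with the floor filter, 1221 with the trended variance, 2258 with array weights, 1234 with only 6 arrays, 175 with a 2-fold minimum and between 254 and 898 without 1 array. For BFA, 11269 became 7215 and 7423 with those filters and 3235 at 2-fold; at 2-fold EHT-1864 gave 1313 of 6767, BFA against EHT-1864 2410 of 8108, and the compounds against normoxia 3203 of 10432 and 1084 of 4965. The share of higher calls for EHT-1864 against normoxia was 36.2%, and 46.9% after quantile normalization. For BFA against DMSO it was 51.5%, and 29.0% with the floor filter, 30.5% with a log2 signal of at least 6 and 29.3% at 2-fold; for BFA against normoxia 49.0%, and 31.8%, 33.1% and 30.2%. For EHT-1864 against DMSO it was 42.8%, and 18.7% at 2-fold. For hypoxia it was 78.9%, and 56.0% with array weights, 61.7% with a log2 signal of at least 6, 62.7% with the trended variance, 63.4% with the floor filter, 66.4% with only 6 arrays, 97.7% at 2-fold and between 70.0% and 92.4% without 1 array. Each of the 9 genes had 1 transcript cluster, so another choice of cluster could not be run. Genes near the floor (Hilpda, Dgat1, Plin4) are limited by background.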
